A study of Mus musculus with 4 samples.

Results

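Major urinary proteins (Mup) are small lipocalins that mouse hepatocytes secrete into the blood and that pass through the kidney into urine, where they bind volatile pheromones. Pulsatile growth hormone, acting through the transcription factor Stat5b, sets their liver level, and males make more of them than females. The genes lie in a cluster and many, though not all, are near-identical copies, so an array sequence made for one of them can also bind the transcripts of others. The Mup genes were taken as every non-control array sequence whose gene name in the scanner files is Mup followed by a digit. This gave 5 sequences for 4 genes (Mup1, Mup3, Mup4 and Mup5) of 41174 sequences and 28090 gene names on the array. No sequence carried the name Mup2 or a higher Mup number under that rule, whereas the RefSeq table of assembly GRCm38.p6 lists 22 protein-coding Mup genes, all on chromosome 4, and 24 pseudogene entries.

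The study compared livers of 2 control mice with those of 2 mice of a group called LB1, in a series on a Lactobacillus isolated from ostrich. All 4 animals were female BALBc mice, and livers were taken 20 days after inoculation. The labels used here do not say what the controls received. RNA of each liver was labelled with Cy3 and hybridised to 1 whole-genome array of 60-base sequences, and each of the 2 slides held 1 control and 1 LB1 array with the same replicate number.

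The LB1 arrays were dimmer. The 75th percentile of the processed signal, to which each array was scaled, was 410.9 and 414.7 on the control arrays and 146.9 and 80.8 on the LB1 arrays, which is 3.79-fold lower, while the 6 spike-in controls were 1.37-fold higher on the LB1 arrays. Saturated spots numbered 266 and 297 on the control arrays and 104 and 64 on the LB1 arrays. The median of all 22967 tested sequences (LB1 minus control, log2) was 0.16 with the 75th percentile, -0.47 with the array median, 0.44 after normexp background correction, -0.09 after quantile normalization, -1.76 without scaling and -2.21 relative to the spike-ins. Of the 6 tested hepatocyte markers, 5 were bright enough to be saturated on at least 1 array. On the 75th percentile scale 2 were called higher and 1 lower by limma. Their summed log2 level was 9.62 and 9.60 on the control arrays and 10.53 and 10.80 on the LB1 arrays, with saturated spots in the sum. Markers of mesothelium, the lining of the organ surface, were called higher on LB1 arrays for 7 of 8 tested genes. Their summed log2 level was 0.48 and -2.42 on the control arrays and 3.71 and 5.47 on the LB1 arrays. The 3 tested striated muscle markers were also called higher. So were 4 of 7 lymphocyte, 3 of 5 cholangiocyte and 3 of 8 stellate cell and fibroblast markers. For exocrine pancreas it was 1 of 4, for sinusoidal endothelium 1 of 7, for adipocytes 0 of 2 and for Kupffer cells and macrophages 0 of 8. Cholangiocytes, Kupffer cells and macrophages, sinusoidal endothelium and exocrine pancreas each had 1 marker called lower. The other lists besides hepatocytes had 0. Of all named genes 20.6% were called higher and 10.4% lower. The part of these markers in the Mup values was not tested. In whole liver RNA, a change in the share of hepatocytes and a change in Mup RNA per hepatocyte cannot be told apart.

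The positions and sequences show where each Mup measurement was placed and which runs of bases the array sequences share. The Mup1 sequence lies at mm9 chr4:60511965-60512188 on the minus strand, where its 60 bases map to a stretch of 224 bases. The accessions listed for it belong to 3 RefSeq genes, Mup1, Mup2 and Mup10. It shares a run of 31 bases, in capitals, with the sequence of LOC100039177, a predicted gene similar to Mup1 at chr4:61177721-61177902.

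Mup1: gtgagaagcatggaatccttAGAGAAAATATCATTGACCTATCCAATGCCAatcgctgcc
LOC100039177: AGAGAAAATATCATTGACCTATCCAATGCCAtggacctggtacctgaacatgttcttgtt

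The Mup5 sequence, at chr4:61496097-61496156 on the minus strand, opens with an ATG, shown in capitals.

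Mup5: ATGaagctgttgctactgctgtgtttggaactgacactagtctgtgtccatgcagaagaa

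For the remaining Mup sequences the last 30 bases are given. The first sequence for Mup3, named here by its transcript NM_001039544, maps to chr4:61744500-61744548 on the minus strand over 49 of its 60 bases and carries an AATAAA motif, in capitals. The Mup4 sequence lies at chr4:59969824-59969883 on the minus strand. The second sequence for Mup3, made from M27608, has no position in the files.

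Mup3 (NM_001039544): tgatttctttcctgtcctgttcAATAAAtg
Mup4: gatctgctttccatcctgtctcacagagaa
Mup3 (M27608): gcttgaatgttgagtggagacttttcacca

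Among the 5 Mup sequences no pair shared more than 7 consecutive bases. They start at different places in their transcripts, from position 58 for Mup5 to 831 for Mup3 (NM_001039544). The lack of longer runs therefore does not show that they bind different transcripts. Their longest run in common with any array sequence outside the family was 13 to 16 bases. Shared runs on the array do not measure binding of transcripts from the other Mup genes, and cross-hybridization was not tested.

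Mup1, a main urinary form made by the liver, could not be compared between the groups. The control mice gave a processed signal of 76644 and 76875, and the LB1 mice gave 75552 and 76637. All 4 spots were saturated, with 62 of 62, 62 of 62, 63 of 64 and 53 of 64 pixels at the scanner's limit. Scaled to the 75th percentile, the same 4 values became 7.54 and 7.53 against 9.01 and 9.89 (log2), a difference of 1.91 (SE 0.35, limma adjusted p = 0.0243) beside a gap of 1.92 between the scaling factors. Without scaling the difference was -0.01, and relative to the spike-ins it was -0.47, so no direction was measured for Mup1.

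Mup4 is a family member known mainly from nasal and lachrymal glands, and its sequence was bright in these livers. The control mice gave 71251 and 72341 units, with 62 of 64 and 60 of 62 pixels saturated, and the LB1 mice 51787 and 42138, with 0 saturated pixels. Both LB1 signals lay below both control signals as scanned. The raw ratio of control over LB1 was therefore at least 1.54-fold. After scaling, the order turned, with 7.44 and 7.45 for the control mice and 8.46 and 9.03 for the LB1 mice. The scaled difference of 1.30 (SE 0.27, limma adjusted p = 0.0289) is an upper limit, because the control values are lower limits. Quantile normalization gave -0.17, no scaling -0.62 and the spike-in reference -1.07.

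Mup3, a liver-expressed member of the family, had 1 sequence that was bright but flagged as saturated on no array. Mup3 (NM_001039544) read 64182 and 65145 in the control mice and 30908 and 26191 in the LB1 mice. The control spots were close to the limit, with 1 of 64 and 7 of 68 pixels saturated, and the LB1 spots had none. Both LB1 signals were lower than both control signals as scanned, by 2.27-fold in the mean. Scaled values were 7.29 and 7.30 against 7.72 and 8.34, so the LB1 arrays were now higher, by 0.74 (SE 0.29, limma adjusted p = 0.102). The difference did not pass the test. Within slide 1 it was 0.43 and within slide 2 it was 1.05. Without LB1 replicate 1 it was 1.05 with limma adjusted p = 0.0227. Its direction turned to -0.31 after quantile normalization, -1.18 without scaling and -1.64 relative to the spike-ins, the last with limma adjusted p = 0.0434.

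The second sequence for Mup3 was dim and separated the mice of a group. Mup3 (M27608) had a processed signal of 190 and 50.1 on the control arrays and 148 and 27.4 on the LB1 arrays. Replicate 1 was the brighter in both groups, and the groups overlapped. Scaled values were -1.11 and -3.05 against 0.01 and -1.56, a difference of 1.31 (SE 0.82, limma adjusted p = 0.252). The mice of a group differed by 3.83-fold among controls and 2.97-fold among LB1 mice on the scaled values, more than the 2.48-fold between the group means. With the replicate number, which is also the slide, as a block, limma adjusted p was 0.0332, and the difference was 1.12 on slide 1 and 1.49 on slide 2. No scaling turned it to -0.61 and the spike-in reference to -1.07.

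Mup5, known best from salivary glands, was measured well below saturation on all 4 arrays. The control mice read 13559 and 36343, and the LB1 mice 6853 and 8238. As scanned, both LB1 signals were below both control signals, by 2.95-fold in the mean. Scaled values were 5.04 and 6.45 against 5.54 and 6.67, and the groups overlapped. The scaled difference was 0.36 (SE 0.61, limma adjusted p = 0.664). Slide 1 alone gave 0.50 and slide 2 gave 0.22. Replicate 2 was the higher in both groups, by 2.66-fold among controls and 2.19-fold among LB1 mice, against 1.28-fold between the groups. The sign was negative after normexp correction (-0.24), with the array median (-0.28), after quantile normalization (-0.04), without scaling (-1.56, limma adjusted p = 0.0218) and relative to the spike-ins (-2.02, limma adjusted p = 0.0139). It was also negative without control replicate 1 (-0.35) and without LB1 replicate 2 (-0.20).

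**Figure D1:**
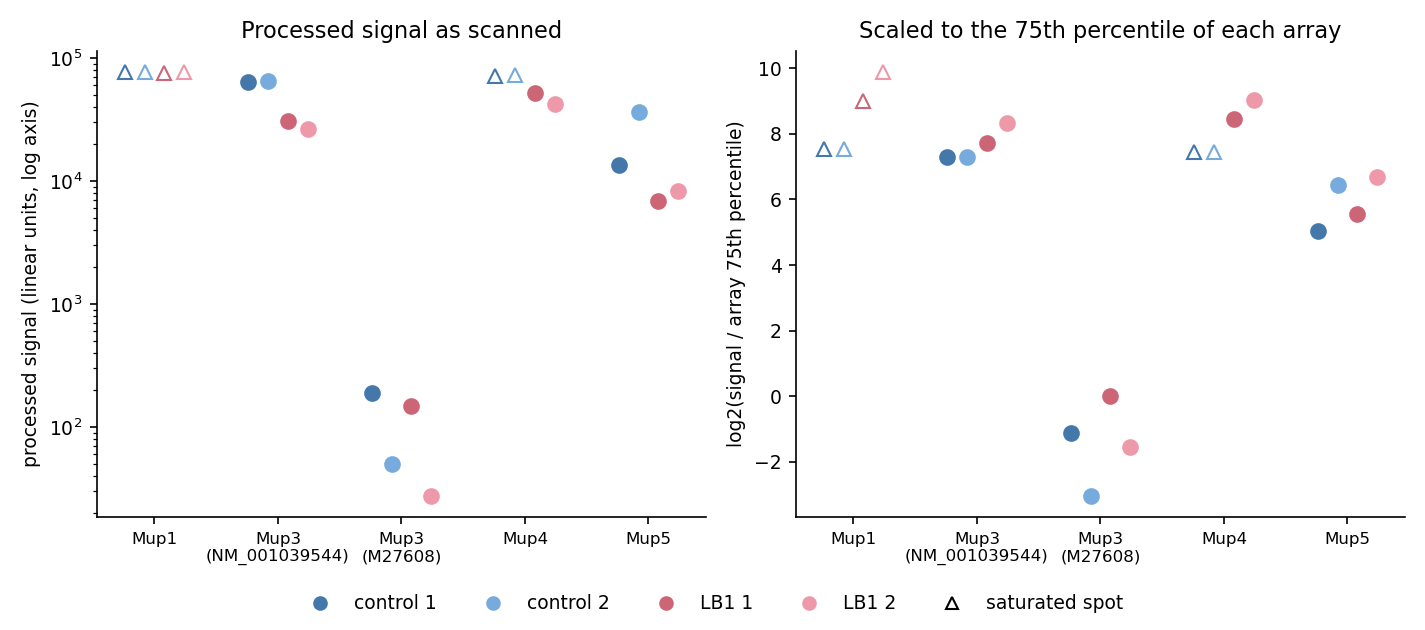
Processed signal (left, log axis) and log2 signal scaled to each array's 75th percentile (right) of the 5 Mup sequences on each of the 4 arrays, 1 symbol per array, with open triangles for saturated spots. As scanned, the LB1 symbols of Mup4, Mup5 and Mup3 (NM_001039544) lie below both control symbols, whereas after scaling those of Mup4 and Mup3 (NM_001039544) lie above them.

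Of the 5 Mup sequences, 2 were called higher on LB1 arrays at a limma adjusted p under 0.05, and 0 were called lower, on the 75th percentile scale. Over all tested sequences 32.4% were called, 19.2% as higher and 13.2% as lower. Both called sequences, Mup1 and Mup4, were saturated on both control arrays, and among all 212 sequences with that property 67.5% were called higher and 0.943% lower. Of the 3 Mup sequences never saturated, 0 passed the limma test after adjustment and 1, Mup3 (NM_001039544), had an unadjusted p under 0.05. The median difference was 1.30 over the 5 sequences and 0.74 over the 3, beside 0.16 for all tested sequences. Scaled values of the groups did not overlap for 3 of 5 Mup sequences, against 76.1% of all tested sequences. With 2 arrays a group, an exact two-sided permutation test of a single value cannot go below 0.333.

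Scalings that shift all sequences of an array alike moved the 5 Mup differences together. All 5 differences were above 0 with the 75th percentile, and all 5 were below 0 without scaling and relative to the spike-ins. Measured from the median of all tested sequences instead, Mup3 (NM_001039544) lay 0.58 above it and Mup5 0.20 above it under each of the 4 constant scalings, which are the 75th percentile, the array median, none and the spike-ins. Quantile normalization put Mup3 (NM_001039544) 0.22 below that median (-0.22) and Mup5 0.04 above it, and normexp correction put them at -0.29 and -0.67. The calls moved with the scaling too. Normexp correction called Mup1 and Mup4 higher, where 69.6% of all tested sequences were called, 49.4% higher and 20.2% lower. The array median left 1 call, Mup1 higher, beside 38.2% of all sequences (7.2% higher and 31.0% lower). Quantile normalization called 0 of the 5 by limma, beside 28.3% of all sequences (11.0% higher and 17.3% lower). Without scaling 1 was called, Mup5 as lower, beside 66.7% of all sequences (0.597% higher and 66.1% lower). Relative to the spike-ins 2 were called, Mup5 and Mup3 (NM_001039544) as lower, beside 73.7% of all sequences (0.309% higher and 73.4% lower). With the replicate number as a block 3 were called higher, Mup1, Mup4 and Mup3 (M27608), beside 30.3% of all sequences (18.2% higher and 12.1% lower).

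Both calls of the main test, Mup1 and Mup4, were lost without either control array, where limma adjusted p was 0.0903 and 0.134 for Mup1 and 0.137 and 0.167 for Mup4. The differences stayed at 1.91 and 1.90 for Mup1 and 1.30 and 1.31 for Mup4, and calls over all tested sequences went from 7440 to 139 without control replicate 1 and to 1 without control replicate 2.

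**Figure D2:**
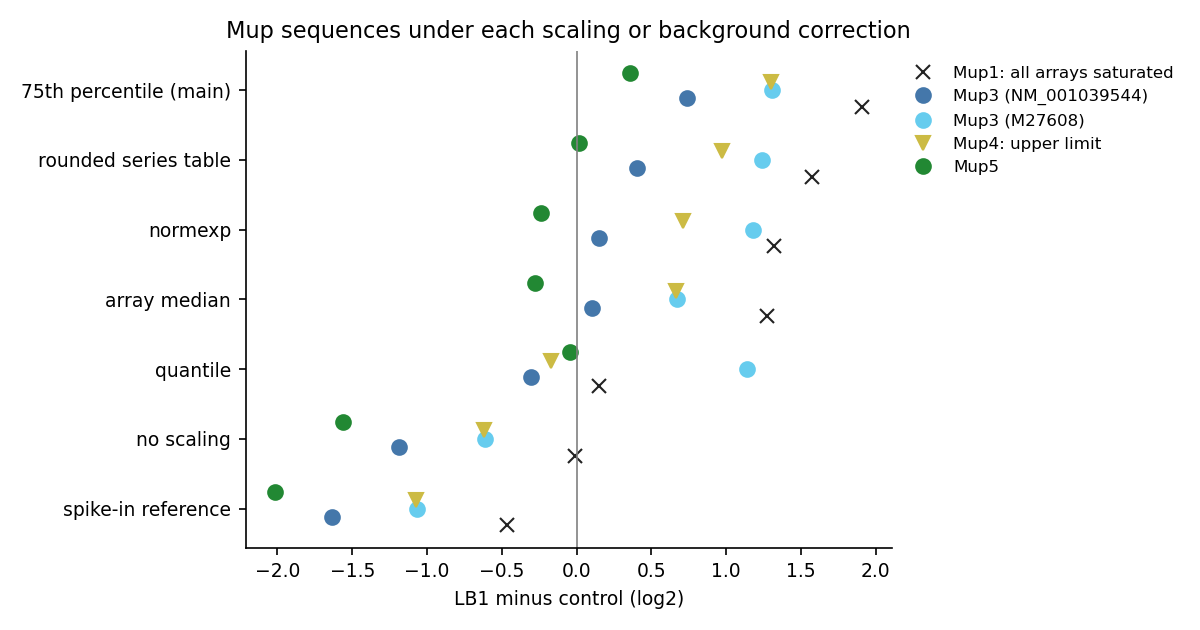
LB1 minus control (log2, horizontal axis) of the 5 Mup sequences under 7 choices of scaling, background correction or source table (vertical axis), 1 symbol per sequence. Crosses mark Mup1, saturated on all arrays, and triangles mark Mup4, whose value is an upper limit. Every symbol lies right of 0 with the 75th percentile and left of 0 without scaling and with the spike-in reference.

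A further 8 array sequences belong to the Mup family by their description, their RefSeq symbol or their position in the cluster. They were gathered after their values were seen. None was saturated. Of these 8, 0 were called by limma, beside 32.4% of all tested sequences, and 1 had an unadjusted p under 0.05. With other scaling or background correction, calls appeared, each of them lower on LB1 arrays. The array median called 3 (AI313989, NAP102507-1 and CU075549.1), normexp correction 2 (AI313989 and 2610016E04Rik), no scaling 5, the spike-in reference 7 and quantile normalization 0. In that order, 31.0%, 20.2%, 66.1%, 73.4% and 17.3% of all tested sequences were called lower. Without LB1 replicate 1, a fit that rests on a lone LB1 array, the directions were mixed. TC1755975 and RP23-10A18.3 were higher there, whereas AI313989 (-1.68) and CU075549.1 (-3.03) were lower. On the 75th percentile scale 3 were higher and 5 lower in the LB1 mean, with a median of -0.15. All 8 were lower without scaling, where the median of all tested sequences was -1.76.

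The transcript cluster TC1755975, described as major urinary protein III and placed at chr4:61745517-61745576, gave a difference like that of Mup3 (NM_001039544) on the 75th percentile scale, with 0 saturated pixels. It read 10437 and 10931 in the control mice and 5066 and 4380 in the LB1 mice. Neither LB1 signal reached the control signals as scanned. The scaled difference was 0.74 (SE 0.29, limma adjusted p = 0.106), which was 0.44 within slide 1 and 1.04 within slide 2, and without scaling it turned to -1.18. Quantile normalization gave 0.38 for TC1755975 and -0.31 for Mup3 (NM_001039544). RP23-10A18.3, described as Mup2, had a signal of 610.4 and 930.4 against 355.9 and 354.5 and a scaled difference of 0.84 (SE 0.39, limma adjusted p = 0.149), which turned to -1.09 without scaling. ENSMUST00000084544, described as a further member of the family, had a scaled difference of 0.63 (SE 0.44, limma adjusted p = 0.296), which turned to -0.01 with the array median and -1.29 without scaling.

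The other 5 were lower in the LB1 mean on the 75th percentile scale and under each of the 5 other choices of scaling or background correction, 6 in all. The array median, no scaling and the spike-ins lower every difference by a constant, so the sign there followed by construction. AI313989, a liver transcript similar to Mup IV, had a signal of 2369 and 2878 on the control arrays and 604 and 160 on the LB1 arrays. Its scaled difference was -1.15 (SE 0.40, limma adjusted p = 0.0808), which was -0.49 within slide 1 and -1.81 within slide 2, and it stood at limma adjusted p = 0.015 without LB1 replicate 1. NAP102507-1 differed by -0.91 (limma adjusted p = 0.265), being 0.11 within slide 1 and -1.93 within slide 2. CU075549.1, now Mup6, differed by -1.21 (limma adjusted p = 0.483), 2610016E04Rik, now Mup10, by -0.27 (limma adjusted p = 0.54) and LOC100039177 by -0.03 (limma adjusted p = 0.975). Within slide 1 and slide 2, CU075549.1 gave -0.21 and -2.22, 2610016E04Rik 0.25 and -0.79, and LOC100039177 0.58 and -0.63.

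Family sequences differed between the LB1 mice by unequal raw folds on the same 2 arrays, with the extremes of the raw signal given first. CU075549.1 (Mup6) had a processed signal of 1106 on LB1 replicate 1 and 48.8 on LB1 replicate 2, 22.7-fold apart. On the same arrays RP23-10A18.3 (Mup2) had 355.9 and 354.5, 1.004-fold apart. NAP102507-1 had 7135 and 1218, and LOC100039177 had 22984 and 3982. These raw values include the gap in brightness between the 2 LB1 arrays, whose 75th percentiles were 146.9 and 80.8. On scaled values CU075549.1 was 12.5-fold lower on LB1 replicate 2, and RP23-10A18.3 was 1.81-fold higher there. Of the 11 family sequences saturated on no array, 6 had a lower scaled value in LB1 replicate 2 than in LB1 replicate 1 and 5 a higher one. Among the control mice 3 were lower in replicate 2 and 8 higher. In 8 of the 11 the mice of both groups differed in the same direction. CU075549.1 differed 3.08-fold in raw signal between the control mice, with 3582 and 1163, and 3.11-fold on scaled values.

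The 4 sequences printed next were chosen after their values were seen, as family members with a run in common. CU075549.1, NAP102507-1, 2610016E04Rik and ENSMUST00000084544 hold the same 13 bases, in capitals. Some pairs of them shared longer runs. 2610016E04Rik shared 20 bases with ENSMUST00000084544 and 19 with CU075549.1. CU075549.1 shared 17 with NAP102507-1 and 15 with ENSMUST00000084544. NAP102507-1 shared 13 with 2610016E04Rik and 13 with ENSMUST00000084544. Runs in common with sequences outside the family were not determined for these 4.

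CU075549.1: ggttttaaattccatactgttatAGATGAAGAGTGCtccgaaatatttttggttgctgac
NAP102507-1: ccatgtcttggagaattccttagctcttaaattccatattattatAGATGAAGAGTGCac
2610016E04Rik: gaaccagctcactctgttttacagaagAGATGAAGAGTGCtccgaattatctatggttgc
ENSMUST00000084544: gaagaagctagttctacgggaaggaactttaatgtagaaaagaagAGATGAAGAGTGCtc

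CU075549.1 maps to chr4:60016964-60017725, 2610016E04Rik to chr4:60593589-60593648 and ENSMUST00000084544 to chr4:60673816-60675115. NAP102507-1 maps across chr4:61494797-61620417, a stretch that also holds the Mup5 sequence. The LB1 mice differed 22.7-fold in raw signal for CU075549.1, 5.86-fold for NAP102507-1, 3.08-fold for 2610016E04Rik and 1.02-fold for ENSMUST00000084544. On scaled values the folds were 12.5, 3.22, 1.70 and 1.86 in that order, with replicate 2 the higher only for ENSMUST00000084544. Between Mup1 and LOC100039177, which share the 31 bases printed above, no comparison was possible because Mup1 was saturated.

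**Figure D3:**
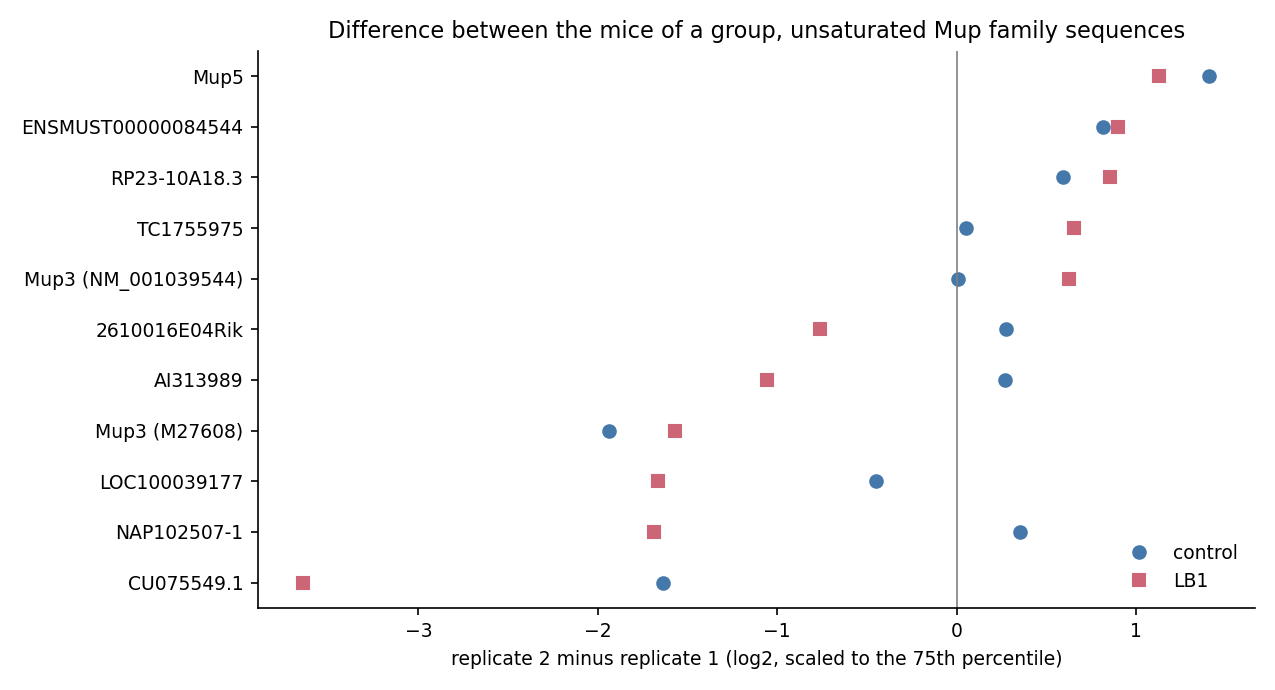
Replicate 2 minus replicate 1 (log2, scaled to the 75th percentile, horizontal axis) within the control group (circles) and the LB1 group (squares) for the 11 Mup family sequences saturated on no array (vertical axis). In the LB1 group 6 squares lie left of 0, farthest for CU075549.1 at -3.64, and 5 lie right of 0.

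The genes whose 4-array profile was most like that of Mup3 (NM_001039544) were Zrsr2, Cep164, Srp19, Rps6kb2 and Srsf10. Their root mean square difference from its centred log2 values was 0.0145 to 0.0226 among 13191 genes compared, over 4 arrays. Their own LB1 minus control differences were 0.70 to 0.77, and none was called by limma. Both follow largely from choosing genes by likeness to Mup3 (NM_001039544), which was not called either.

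Growth hormone signalling, which controls Mup transcription, had 3 of 12 tested genes called higher and 1 lower on the 75th percentile scale, with a median of 0.85. Of all named genes 20.6% were called higher and 10.4% lower, with a median of 0.25. Relative to the spike-ins 0 of the 12 were higher and 7 lower, where 0.309% of all tested sequences were higher and 73.4% lower. Stat5a, a transcription factor activated by the receptor, was at 1.08 and 1.18 on the control arrays and 2.74 and 3.11 on the LB1 arrays, a rise of 1.80 (limma adjusted p = 0.0212) that turned to -0.58 relative to the spike-ins. Socs1, an inhibitor of the pathway, rose by 1.99 (limma adjusted p = 0.0232), which turned to -0.38 relative to the spike-ins. Igf1, the main secreted product of the pathway, rose by 1.14 (limma adjusted p = 0.0324) at its brightest sequence, while its other sequences gave 1.83, 0.04 and -0.27, and the spike-in reference turned the brightest to -1.24. Jak2, the kinase bound to the receptor and named after its value was seen as the 1 gene called lower, differed by -1.35 (limma adjusted p = 0.035). Stat5b, the factor tied most closely to Mup genes, differed by 0.70 (limma adjusted p = 0.0583) at its brightest sequence, whereas its other sequences gave -0.82 (limma adjusted p = 0.0442) and -0.33. Ghr, the receptor, differed by -0.12 (limma adjusted p = 0.741) at its brightest sequence, and its other sequences ranged from -1.49 (limma adjusted p = 0.0304) to 2.15 (limma adjusted p = 0.0406).

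Transcription factors and nuclear receptors that act on Mup genes had 5 of 14 tested genes called higher and 0 lower by limma, with a median of 0.46. Of all named genes 20.6% were called higher and 10.4% lower. The array median gave 0 higher and 4 lower, beside 7.2% and 31.0% of all tested sequences. Relative to the spike-ins 0 were higher and 9 lower, where 73.4% of all tested sequences were lower. Cebpb, a factor of the acute phase response, rose by 1.49 (limma adjusted p = 0.0214) at its brightest sequence while its other sequence gave 0.96 (limma adjusted p = 0.108), and Foxa2, a forkhead factor, rose by 1.26 (limma adjusted p = 0.0285). Both turned negative without scaling, with -0.43 and -0.66. Hnf4a, a nuclear receptor of hepatocytes, differed by 0.54 (limma adjusted p = 0.125), which turned to -0.10 with the array median. Zhx2, a zinc finger and homeobox factor of the postnatal liver, was at a signal of 21.5 and 21.6 on the control arrays and was not well above background on the LB1 arrays, so no fold is given.

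Other lipocalins, the protein family to which Mup belongs, had 5 of 12 tested genes called higher and 1 lower, with a median of 0.94, and 0 higher and 6 lower relative to the spike-ins. Among all named genes the shares were 20.6% higher and 10.4% lower, with a median of 0.25. On the spike-in scale 0.309% of all tested sequences were higher and 73.4% lower. Of the 5 lipocalins called higher, Rbp4, the retinol carrier, and Ambp were saturated on all 4 arrays. Lcn10, a lipocalin known from the epididymis, rose by 1.38 (limma adjusted p = 0.023), which turned to -0.54 without scaling. Lcn9, also epididymal, failed the background criterion in both LB1 mice, with a signal of 14.1 and 13.1 against 11.8 and 8.65. Apom, an apolipoprotein of the lipocalin family named after its value was seen as the 1 gene called lower, differed by -1.003 (limma adjusted p = 0.0344), a limit because its spot was saturated on control replicate 2.

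Male-biased liver genes, the class that holds Mup, had 3 of 14 tested genes called higher and 3 lower, with a median of 0.65. Of all named genes 20.6% were called higher and 10.4% lower, with a median of 0.25. Ugt2b38, a glucuronosyltransferase, fell by 2.65 (limma adjusted p = 0.0201) from 6.02 and 5.97 to 3.52 and 3.17. Cyp4a12b, a fatty acid hydroxylase, fell by 2.02 (limma adjusted p = 0.0201). Both LB1 values of each lay below both control values, and the groups did not overlap for 76.1% of all tested sequences. Elovl3 and Cyp4a12a, named after their values were seen among the 3 genes called higher, differed by 2.77 (limma adjusted p = 0.03) and 1.51 (limma adjusted p = 0.0469). Relative to the spike-ins these became 0.39 and -0.87. Gstp1, a glutathione transferase, had saturated spots in both control mice, which makes its difference of 1.44 an upper limit, and it turned to -0.48 without scaling. The other Gstp1 sequence gave 0.61 (limma adjusted p = 0.149). Female-biased liver genes had 2 of 22 called higher, both saturated on both control arrays, and 6 lower, with a median of -0.56, beside the same shares of all named genes. Rtn4, a protein that shapes the endoplasmic reticulum, fell by 3.26, Acot3, an acyl-CoA thioesterase, by 2.48 and Cyp39a1, an oxysterol hydroxylase, by 2.29, each with limma adjusted p = 0.0201. Relative to the spike-ins 0 of the 14 male-biased genes were higher and 8 lower, and 0 of the 22 female-biased genes were higher and 19 lower, to be read against the 73.4% of all tested sequences that were lower on that scale.

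Abundant secreted proteins of hepatocytes shared the saturation seen for Mup1 and Mup4. Of 30 tested genes 23 were called higher and 0 lower by limma, with a median of 1.79, but 24 were saturated on both control arrays. Of all named genes 20.6% were called higher and 10.4% lower. Of all tested sequences saturated on both control arrays 67.5% were called higher and 0.943% lower. Of the 5 saturated on no array 2 were called higher, with a median of 0.54. Quantile normalization gave 0 higher and 3 lower, beside 11.0% and 17.3% of all tested sequences. Azgp1, a zinc-binding glycoprotein, had a difference of 1.54, Apoa1, the main protein of high-density lipoprotein, 1.56 and Apoh, a phospholipid-binding glycoprotein, 1.42. The values of Azgp1 and Apoa1 are upper limits, and Apoh, saturated on both control arrays and on LB1 replicate 1, has no measured difference. Without scaling the 3 values turned to -0.38, -0.36 and -0.50.

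**Figure D4:**
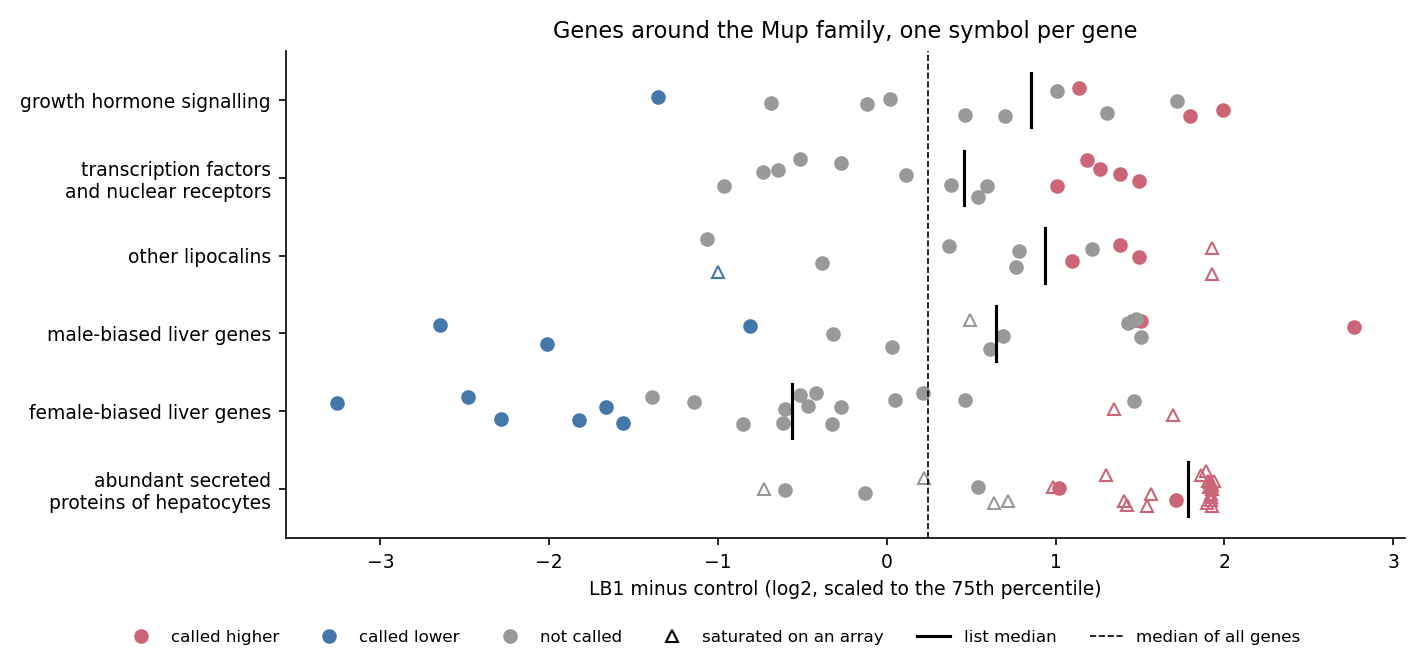
LB1 minus control (log2, scaled to the 75th percentile, horizontal axis) of the genes around the Mup family in 6 lists (vertical axis), 1 symbol per gene, red where called higher, blue where called lower and grey where not called. Open triangles are genes saturated on at least 1 array, solid bars are list medians and the dashed line is the median of all named genes, 0.25. Relative to the spike-ins no gene of these lists was called higher. The 14 abundant secreted proteins saturated on all 4 arrays lie between 1.89 and 1.94, beside a gap of 1.92 between the scaling factors, and the 11 saturated on 1 to 3 arrays lie between -0.73 and 1.86.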

How the data were processed

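Liver RNA of 2 control and 2 LB1 mice was read on 4 one-colour Agilent arrays. Per the file headers, the deposited scanner files hold spot intensity from Feature Extraction 10.5.1.1 with the background already removed within each array, whereas the series' design text names another version. The deposited series table holds the authors' mean intensity rounded to whole numbers. Control spots and outlier spots were left out, log2 processed signals were scaled by subtracting each array's 75th percentile, and the 22967 sequences that cleared the scanner's background flag in both mice of a group were fitted with limma 3.58.1 in R 4.3.3, with Benjamini-Hochberg adjustment over all of them. A call is an adjusted p under 0.05. Where both spots of a group were saturated, their value was taken as a limit. The procedure was tested on simulated data.

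Named genes were all Mup sequences, the 3 genes of smallest p in each list, Ghr, Stat5b, Hnf4a and Zhx2, and the 5 genes most like the brightest unsaturated Mup sequence. One gene that this rule names is not reported here. A gene was its brightest sequence. The Mup genes and the lists were chosen with earlier results of these data known. Alternatives changed the background correction, scaling, filters, model, source table and the arrays included. The number of arrays, saturation and dim spots limit the precision.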

Additional observations from a re-analysis of the deposited data

How the results depend on the processing

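The design holds 2 arrays a group, so the test borrows its spread from all sequences, and a fit without 1 array rests on a lone sample assumed to vary like the other group. Spots at the scanner's limit carry no measured change, and sequences near background carry only a limit. The difference of Mup3 (M27608) was below the spread between mice of a group. The cause of the changes listed here was not tested, except that leaving out saturated sequences removes Mup1 and Mup4 by construction.

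On the main setting the calls numbered 23 for abundant secreted proteins, 5 for transcription factors and receptors, 7440 for all tested sequences, 2 for the Mup sequences, 4 for growth hormone signalling, 6 for other lipocalins, 6 for male-biased genes and 8 for female-biased genes. With quantile normalization they numbered 0 for the Mup sequences, 2 for other lipocalins, 3 for abundant secreted proteins and 6498 for all tested sequences. With the array median they numbered 1 for the Mup sequences, 15 for female-biased genes (1 higher and 14 lower) and 8779 for all tested sequences (1654 higher and 7125 lower). Without scaling they numbered 1 for the Mup sequences, 15308 for all tested sequences, 8 for transcription factors and receptors, 19 for female-biased genes and 5 for abundant secreted proteins. With sequences saturated on any array left out they numbered 0 for the Mup sequences, 3 for other lipocalins and 2 for abundant secreted proteins. All tested sequences had 7226 calls there. By the methods' t-test after Benjamini-Hochberg adjustment 0 sequences or genes were called in any of these groups, beside the unadjusted counts of 4109 for all tested sequences and 2 for Mup. With normexp background correction they numbered 15988 for all tested sequences, 7 for growth hormone signalling, 10 for transcription factors and receptors, 10 for male-biased genes and 15 for female-biased genes. Relative to the spike-ins they numbered 16919 for all tested sequences, 7 for growth hormone signalling, 9 for transcription factors and receptors, 19 for female-biased genes and 7 for abundant secreted proteins. Without the filter on dim sequences they numbered 20683 for all tested sequences. With the rounded series table they numbered 14445 for all tested sequences, 9 for transcription factors and receptors, 10 for male-biased genes and 15 for female-biased genes. By the methods' t-test, unadjusted and at least 2-fold, they numbered 4109 for all tested sequences and 3 for male-biased genes. Without scaling the sign changed for Mup1 (-0.013), Mup3 (NM_001039544) (-1.18), Mup3 (M27608) (-0.61), Mup4 (-0.62), Mup5 (-1.56), ENSMUST00000084544 (-1.29), RP23-10A18.3 (-1.09), TC1755975 (-1.18), Stat5a (-0.12), Igf1 (-0.78), Stat5b (-1.22), Cebpb (-0.43), Foxa2 (-0.66), Hnf4a (-1.38), Lcn10 (-0.54), Gstp1 (-0.48), Azgp1 (-0.38), Apoa1 (-0.36) and Apoh (-0.50). Relative to the spike-ins the sign changed for Mup1 (-0.47), Mup3 (NM_001039544) (-1.64), Mup3 (M27608) (-1.07), Mup4 (-1.07), Mup5 (-2.02), ENSMUST00000084544 (-1.75), RP23-10A18.3 (-1.54), TC1755975 (-1.64), Stat5a (-0.58), Socs1 (-0.38), Igf1 (-1.24), Stat5b (-1.68), Cebpb (-0.88), Foxa2 (-1.11), Hnf4a (-1.84), Lcn10 (-0.996), Rbp4 (-0.45), Gstp1 (-0.93), Azgp1 (-0.84), Apoa1 (-0.81) and Apoh (-0.95). With quantile normalization the sign changed for Mup3 (NM_001039544) (-0.31), Mup4 (-0.17) and Mup5 (-0.044). With normexp background correction the sign changed for Mup5 (-0.24). With the array median the sign changed for Mup5 (-0.28), ENSMUST00000084544 (-0.0052) and Hnf4a (-0.10). Lcn9 and Zhx2 were not well above background on the LB1 arrays, so neither the size nor the sign of their fitted values is measured (-0.43 for Lcn9 without scaling and -0.88 relative to the spike-ins, 1.31 for Zhx2 with normexp correction and 1.05 with the rounded series table). Dropping the scaling, or using the array median or the spike-ins, shifts the difference of every sequence by the same amount, which by construction gives the sign changes under those settings. With 1 array left out in turn, calls ranged from 0 to 3 for the Mup sequences, 1 to 11028 for all tested sequences, 0 to 8 for growth hormone signalling, 0 to 7 for transcription factors and receptors, 0 to 7 for other lipocalins, 0 to 10 for male-biased genes, 0 to 13 for female-biased genes and 0 to 26 for abundant secreted proteins. The lowest counts came without a control array, with 139 of all tested sequences called without control replicate 1 and 1 without control replicate 2. Differences that changed sign in these fits ranged from -0.35 to 1.06 for Mup5, -0.65 to 0.11 for 2610016E04Rik, -3.03 to 0.61 for CU075549.1, -0.86 to 0.81 for LOC100039177 and -0.37 to 0.13 for Ghr. Arrays with the same replicate number deviated together with r = 0.15 over 22955 sequences, a weak relation over 2 pairs, and the labels do not tie the numbers to a shared batch beyond the slide. With the replicate number as a block, 6959 of all tested sequences and 3 Mup sequences were called, the added one being Mup3 (M27608) with a difference of 1.31 (limma adjusted p = 0.0332).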
